A study of Mus musculus with 15 samples.

Results

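Binding of the transcription factor NRL was followed in the developing mouse retina at 7 genes that encode adhesion and matrix proteins of the rod synapse: Dmd, Agrn, Egflam, Nrxn3, Elfn1, Lrit1 and Lrit2. The members were chosen by gene symbol, as every row of the deposited peak table that the authors had assigned to one of these 7 genes. That gave 11 of the 8996 peaks in the table: 4 at Elfn1, 2 at Nrxn3 and 1 at each of the other genes. The authors assigned each peak to a nearby transcription start site (TSS), and an assignment does not show that the peak acts on that gene.

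Binding was read by CUT&RUN, where a nuclease held at NRL by an antibody releases the DNA beside the bound protein. Each experiment used 250000 dissociated retinal cells of C57BL/6J mice aged 2, 4, 10 or 28 days after birth (P2, P4, P10 and P28), with no treatment and no altered gene named in the labels. Of 15 labelled libraries (4 per age, but 3 at P2) the peak table holds 8: at P10 replicates 1 and 4, and at every other age replicates 3 and 4. Whether replicates stem from separate animals is not stated, and p-values here reflect only the spread between libraries, which may be technical. In a fit that leaves out 1 library, the age of that library rests on a single library, and the spread comes from the other ages.

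Whole retina holds every retinal cell type, and a signal here averages over cells that do and do not contain NRL. All 10 rod genes on the marker list used had a peak in the table, as did 2 of 7 cone, 3 of 8 bipolar, 2 of 7 amacrine, horizontal and ganglion cell, 0 of 5 Müller glia and 0 of 4 microglia and vessel genes. Reads inside peaks ranged from 49430 to 227692 per library. They made up 0.986 and 0.940% of a library's scale at P2, 1.52 and 1.51% at P28, and 3.08 and 2.84% at P10. The P4 libraries differed, with 1.09% in replicate 3 (85740 reads) and 2.15% in replicate 4 (150878 reads). Values are given as RPKM, read density scaled to the width of the peak and to the library, so that 3 reads in a peak of the median width correspond to 1.16 to 1.77 RPKM. Over all peaks, the median of the per-peak changes on the log2(RPKM + 1) scale was 0.48 for P4 against P2. It was 0.73 for P10 against P4 and -0.69 for P28 against P10. Changes that also held after each library was centred on its own median are named as such below.

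NRL is a basic leucine zipper protein of the Maf family that directs precursors to the rod fate and keeps rod genes active. Rods end in a terminal with a synaptic ribbon, where processes of rod bipolar and horizontal cells enter a pocket. Matrix and membrane molecules hold this contact together: a matrix complex around dystroglycan, which joins the cytoskeleton to extracellular ligands, and presynaptic adhesion proteins that reach across the cleft to receptors of the bipolar cell. Dystrophin (Dmd) links dystroglycan to actin, pikachurin (Egflam) and agrin (Agrn) are matrix ligands of dystroglycan, neurexin 3 (Nrxn3) and ELFN1 organise the partner cell from the presynaptic side, and LRIT1 is a leucine-rich repeat protein of the photoreceptor synapse. LRIT2 belongs to the same family as LRIT1.

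The peaks at Lrit1 and Lrit2 each lay over an annotated start of the gene and overlapped promoter windows for which RefSeq gives the sequence. They are shown because no peak of the other genes overlapped such a window. The other peaks were not searched for motifs. Both stretches held the same pair of motifs near the summit of the peak. The stretches are from RefSeq on GRCm38.p6, plus strand, chr14:37054616-37054860 for the whole Lrit1 peak and chr14:37067912-37068097 for the part of the Lrit2 peak inside the windows, leaving out the last 94 bases of that peak. Capitals mark TGCTGA, the core of the half-site that Maf-family proteins recognise, and TAATCC, the core that the photoreceptor homeobox protein CRX recognises, read on both strands (reverse complements TCAGCA and GGATTA).
Lrit1: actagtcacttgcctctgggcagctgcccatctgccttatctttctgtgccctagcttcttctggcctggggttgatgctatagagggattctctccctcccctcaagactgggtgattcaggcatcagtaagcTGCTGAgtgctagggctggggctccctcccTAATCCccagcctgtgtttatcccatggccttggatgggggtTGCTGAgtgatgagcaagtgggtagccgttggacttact
Lrit2: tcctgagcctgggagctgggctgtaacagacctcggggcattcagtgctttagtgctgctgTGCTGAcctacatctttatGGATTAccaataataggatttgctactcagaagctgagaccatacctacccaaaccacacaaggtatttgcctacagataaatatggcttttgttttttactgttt

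In the Lrit1 stretch the summit of the P10 peak, at base 146 from the left end, lay 6 bases from the first TGCTGA, 61 bases from the second and 19 bases from TAATCC. In Lrit2 the P10 summit, at base 63, lay inside TGCTGA and 18 bases from the TAATCC core on the minus strand. The AP-1 site TGACTCA, searched on both strands in the same way, was in neither stretch. Of 32851 RefSeq promoter windows (250 bases before to 50 after a start), 19.5% held TGCTGA, 7.06% held TAATCC, 5.20% held TGACTCA and 1.36% held both TGCTGA and TAATCC. A match of letters is a description and does not show that a protein bound there. The 7 genes had 13 such windows, of which the 1 of Lrit1 and the 2 of Lrit2 overlapped a peak. The nearest other peak was that of Egflam, 40 bases from a window.

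The first comparison asked at which ages the authors called these peaks. None of the 11 was in the P2 list, 4 were in the P4 list, 9 in the P10 list and 4 in the P28 list. Of all peaks in the table, 13.5, 35.0, 83.2 and 38.6% were in the lists of P2, P4, P10 and P28. The peaks of Dmd and Lrit1 and those here called Elfn1 peaks 1 and 3 (numbered along the chromosome) were in the P10 list alone, a class that took 41.9% of the table. Agrn and Nrxn3 peak 1 were in the P4 and P10 lists, Elfn1 peaks 2 and 4 in the P10 and P28 lists, and Lrit2 in the P4, P10 and P28 lists. Nrxn3 peak 2 was in the P4 list alone and Egflam in the P28 list alone. Each age has 1 list, so presence carries no spread between samples. Every peak of the table was in at least 1 of these lists. A peak listed at 1 age alone thus entered the table through that age. Such selection favours a higher signal at a listed age than at an unlisted one. The changes between ages given below are therefore not independent of the lists.

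**Figure D1:**
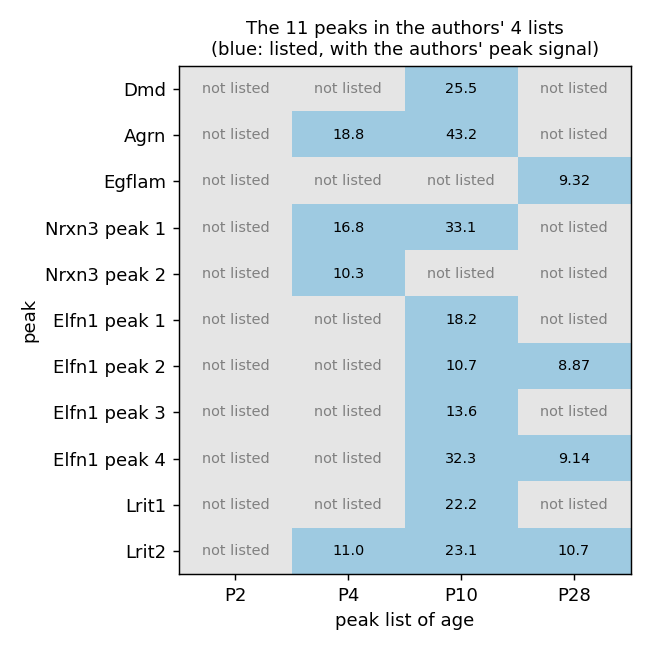
Rows are the 11 peaks and columns the authors' peak list of each age. Blue cells hold the authors' peak signal of a listed peak, from 8.87 for Elfn1 peak 2 at P28 to 43.2 for Agrn at P10, and grey cells are peaks not in that list. No cell of the P2 column is filled and 9 of the P10 column are.

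Within the P10 list, the authors' signal put Agrn at rank 433 of 7520, Nrxn3 peak 1 at 778 and Elfn1 peak 4 at 814. The others ranked from 1340 (Dmd) to 5333 (Elfn1 peak 2), with Elfn1 peak 3 at 3793. All 9 peaks had the top reproducibility score of 1000 there, also those of low rank, so the score does not separate them. The share of the whole list with that score is not given here. In the P28 list the 4 peaks had scores of 613 to 913 and signal ranks from 2100 (Lrit2) to 3237 (Elfn1 peak 2) of 3482, in the weaker part of that list. Where a peak was called at more than 1 age its summits lay close together, 8 bases apart for Agrn, 9 for Nrxn3 peak 1, 21 for Lrit2, 25 for Elfn1 peak 2 and 63 for Elfn1 peak 4.

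Signal was highest at P10 in 9 of the 11 peaks, which is also the most common pattern in the table (70.4% of all peaks). The exceptions were Egflam, highest at P28, and Nrxn3 peak 2, highest at P4. At P10 the order of mean RPKM was Agrn (42.0), Nrxn3 peak 1 (32.1), Elfn1 peak 4 (21.5), Dmd (14.9), Lrit1 (13.0), Lrit2 (12.2), Elfn1 peak 1 (12), Elfn1 peak 3 (10.7), Elfn1 peak 2 (8.07), Nrxn3 peak 2 (3.20) and Egflam (2.84). The libraries of the first 4 peaks did not overlap from one peak to the next, those from Dmd to Elfn1 peak 1 overlapped each with its neighbour, and so did Elfn1 peaks 3 and 2, and Nrxn3 peak 2 and Egflam. Both libraries of Elfn1 peak 1 were slightly above both of Elfn1 peak 3. By P28 the order had Lrit1 (8.40) and Egflam (6.71) on top and Agrn (1.53) last.

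**Figure D2:**
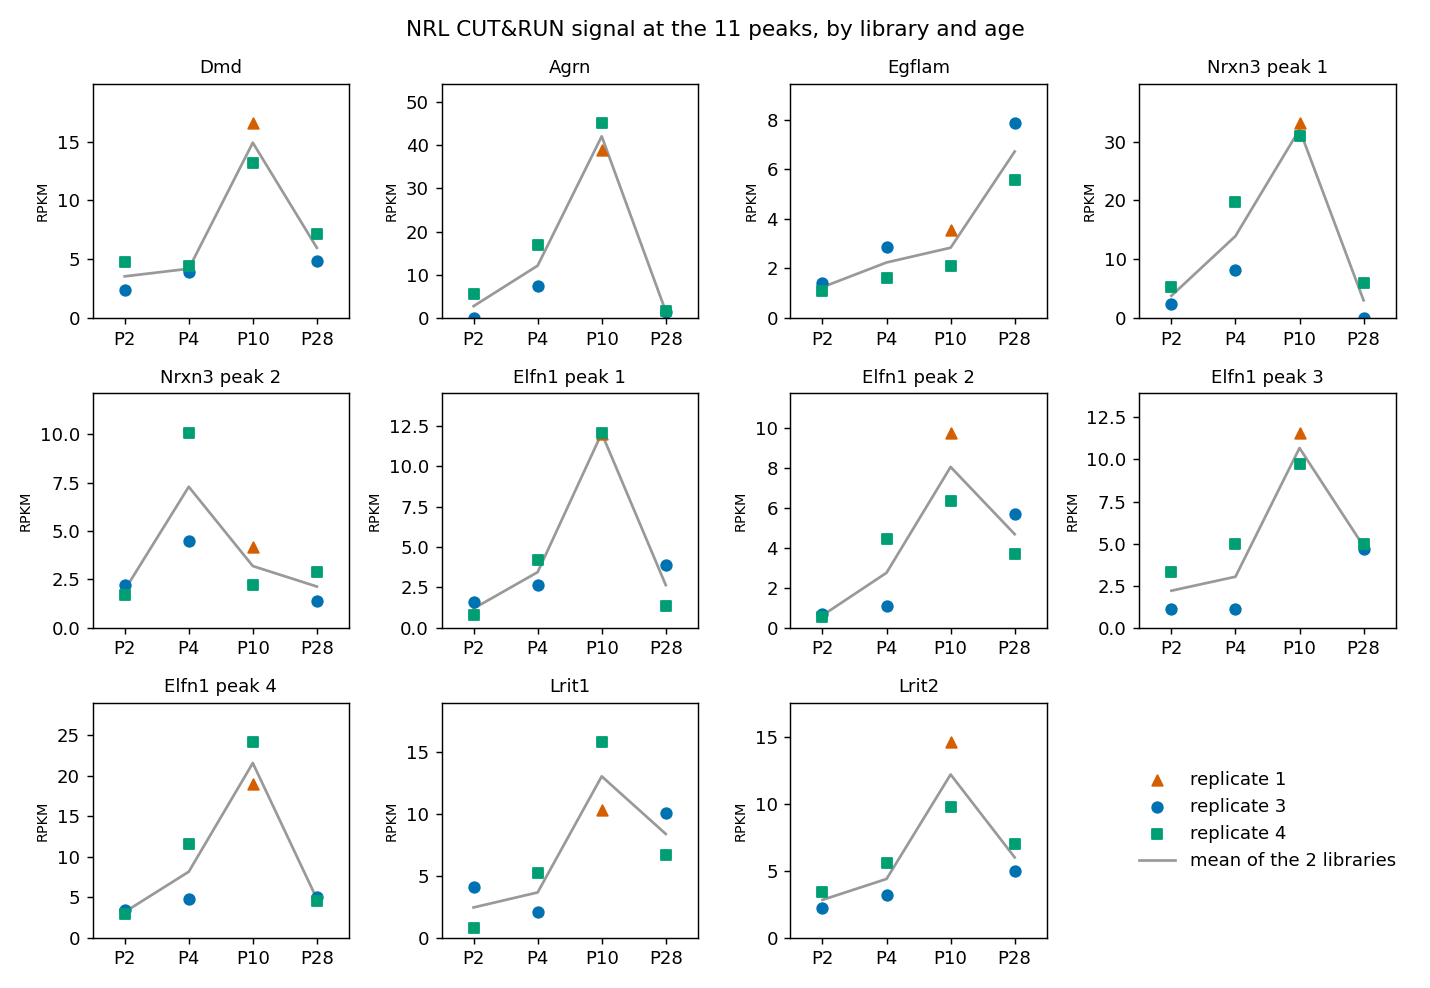
Each panel is 1 peak, with age on the x axis and RPKM on a linear y axis from 0 whose range differs between panels. Symbols are single libraries and the grey line joins the means of the 2 libraries of an age. The P10 libraries lie above those of the other ages in most panels, with Egflam and Nrxn3 peak 2 as exceptions, and Agrn and Nrxn3 peak 1 drop furthest at P28.

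Agrin is the heparan sulfate proteoglycan that gathers receptors at the nerve-muscle junction and binds dystroglycan. Its peak (GRCm38.p6, chromosome 4, 156182430 to 156182741) lies in intron 2 of 21 of the transcript named in the table, 3160 bp inside from the assigned start and within the RefSeq gene (156165290 to 156197533). It had 0 and 5.49 RPKM in the P2 libraries, 7.33 and 16.9 in those of P4, 38.9 and 45.2 in those of P10, and 1.49 and 1.57 in those of P28, from 0 and 9, 18 and 37, 77 and 113, and 3 and 3 reads. Both P10 libraries were above every other library, and both P28 libraries were below both P4 and both P10 libraries. Among all peaks, its mean was in the top 2.31% at P10 and the top 87.5% at P28. The peak fell by 4.08 ± 0.68 at P28 against P10 on the log2(RPKM + 1) scale (SE, limma over all peaks, adjusted p = 6.7e-04). In reads, 6 at P28 faced 190 at P10, 27.7-fold lower for equal library scale (exact 95% counting interval 12.5 to 76.4). Its fall was among the steepest 0.0889% of all peaks for this step.

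The higher Agrn values at P4 and P10 were not called in either step. The difference was 2.26 ± 0.68 for P4 against P2 (adjusted p = 0.146) and 1.81 ± 0.68 for P10 against P4 (adjusted p = 0.0679, limma). The P10 against P4 difference passed in 5 of 8 fits that left out 1 library, with adjusted p from 0.0186 without P2 replicate 4 to 0.454. Between P4 and P2 it passed in 3 of 8, with 0.00677 without P2 replicate 4, 0.0345 without P28 replicate 3 and 0.0331 without P28 replicate 4.

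Pikachurin, the product of Egflam, is a secreted ligand of dystroglycan that is needed for bipolar dendrites to meet the rod ribbon. The Egflam peak (chromosome 15, 7398685 to 7398861) lies 290 bp upstream of the assigned start and overlaps the end of the RefSeq gene (7206120 to 7398744) at its 5′ side. Its libraries had P2 values of 1.42 and 1.07 RPKM, P4 values of 2.87 and 1.61, P10 values of 3.56 and 2.11 and P28 values of 7.88 and 5.55. The P28 libraries were above all 6 others, unlike those of the other 10 peaks. Egflam was in the P28 list alone and so entered the table through P28. That selection favours this pattern and the rise at P28. Counts were small, at most 9 reads in a library. Relative to P2, Egflam rose by 1.77 ± 0.46 at P28 (limma, adjusted p = 0.0146), with 15 reads at P28 and 3 at P2, a ratio of 5.25 (exact 95% counting interval 1.49 to 28.3). The call was lost without P2 replicate 4 (adjusted p = 0.0711) and without P28 replicate 3 (0.0953). Against P10 the P28 mean was higher by 1.02 ± 0.46 (adjusted p = 0.112), and after median centring by 1.62 ± 0.45 (adjusted p = 0.0356).

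Dystrophin anchors the dystroglycan complex to actin, and retina makes short forms of it from promoters inside the gene. The Dmd peak (chromosome X, 83855252 to 83855412) lies over an annotated start at 83855407, inside the RefSeq gene (82814664 to 85205050), and 906333 bases from the nearest of the 2 Dmd promoter windows in RefSeq. The sources used here do not name the form that starts there. Dmd had P2 values of 2.35 and 4.73 RPKM, P4 values of 3.94 and 4.43, P10 values of 16.6 and 13.2 and P28 values of 4.81 and 7.12. The P10 libraries were above all 6 others, the P2 and P4 libraries overlapped, and the lower P28 library was just above the highest of these. Dmd rose by 1.61 ± 0.52 at P10 against P4 (limma, adjusted p = 0.0356; 34 and 10 reads). At P28 it was lower than at P10 by a log2 difference of -1.20 ± 0.52, which was not called (adjusted p = 0.0950, and 0.0419 and 0.0391 without P4 replicates 3 and 4).

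Neurexin 3 is a presynaptic adhesion protein that binds neuroligins and other partners across the cleft. Nrxn3 peak 1 (chromosome 12, 88904461 to 88904569) lies 48821 bp upstream of the assigned start and peak 2 (89016449 to 89016561) lies 63050 bp downstream of one. Both are in intron 4 of 7 of the same transcript and inside the RefSeq gene (88722701 to 90334935). Peak 1 had P2 values of 2.31 and 5.24 RPKM, P4 values of 8.15 and 19.7, P10 values of 33.2 and 30.9 and P28 values of 0 and 6.01. Its P10 libraries were above all others, and the P28 libraries overlapped those of P2. Peak 1 fell by 3.64 ± 0.71 at P28 against P10 (limma, adjusted p = 0.00194), with 4 reads at P28 and 50 at P10, 10.9-fold lower (exact 95% counting interval 4.01 to 41.7). Without P28 replicate 3, the library with 0 reads, the log2 change was -2.24 (adjusted p = 0.0400).

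Nrxn3 peak 2, in the same intron, followed another course. It had P2 values of 2.23 and 1.68 RPKM, P4 values of 4.49 and 10.1, P10 values of 4.18 and 2.21 and P28 values of 1.37 and 2.90. Both P4 libraries were above every other library, with 12 reads at P4 and 3 to 5 at each other age. No comparison called it with all 8 libraries and no centring (P10 against P4, -0.94 ± 0.49, limma adjusted p = 0.175). For P4 against P2 it differed by 1.41 ± 0.49 (adjusted p = 0.203). The difference was 1.92 without P4 replicate 3, where P4 rests on replicate 4 alone. With each library centred on its median it fell by 1.65 ± 0.42 at P10 against P4 (adjusted p = 0.0342). Nrxn3 peak 2 was in the P4 list alone and so entered the table through P4. That selection favours its high P4 values, the difference from P2 and the fall at P10. The difference in course between the 2 Nrxn3 peaks was not tested.

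ELFN1 sits in the rod terminal and binds the glutamate receptor mGluR6 of rod bipolar cells. Its 4 peaks lie far from its start. Peaks 1 and 2 (chromosome 5, 139869824 to 139870060 and 139870817 to 139871170) are intergenic, 37883 and 36773 bp upstream, with 757 bases from one to the other. Peak 3 (139969201 to 139969430) is in intron 1 of 1, 60727 bp downstream of the start. Peak 4 (140007925 to 140008323) is 33200 bases beyond the RefSeq gene of Elfn1 and 366 bases from that of Mad1l1, a mitotic checkpoint gene, so its assignment to Elfn1 is uncertain. A stronger peak assigned to Mad1l1, 16039 bases further on, averaged 22.9, 39.5, 89.4 and 25.1 RPKM at P2, P4, P10 and P28.

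Elfn1 peak 1 had P2 values of 1.59 and 0.803 RPKM, P4 values of 2.68 and 4.22, P10 values of 12 and 12.1 and P28 values of 3.92 and 1.38. Its P10 libraries were nearly equal and above all others. It rose by 1.57 ± 0.49 at P10 against P4 (limma, adjusted p = 0.0306) and fell by 1.93 ± 0.49 at P28 against P10 (adjusted p = 0.00808). Peak 2, less than 1 kb away, had P2 values of 0.712 and 0.537 RPKM, P4 values of 1.08 and 4.44, P10 values of 9.79 and 6.34 and P28 values of 5.69 and 3.70. The P28 libraries of peak 2 were above those of P2, and it was called for P28 against P2 (1.79 ± 0.50, limma adjusted p = 0.0213), with 21 and 3 reads, a ratio of 7.35 (exact 95% counting interval 2.20 to 38.5). That call was lost without P2 replicate 4 (0.0804) and without P28 replicate 3 (0.107). Its differences for P10 against P4 (1.41 ± 0.50, adjusted p = 0.0532) and P28 against P10 (-0.67 ± 0.50, adjusted p = 0.344) were not called, and the first of these passed in 5 of 8 fits without 1 library.

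Elfn1 peak 3 had P2 values of 1.10 and 3.31 RPKM, P4 values of 1.10 and 4.97, P10 values of 11.6 and 9.76 and P28 values of 4.71 and 4.98. It rose by 1.72 ± 0.54 at P10 against P4 (limma, adjusted p = 0.0306), and the libraries of P2 and P4 overlapped. Peak 4 had P2 values of 3.47 and 2.86 RPKM, P4 values of 4.77 and 11.5, P10 values of 19.0 and 24.1 and P28 values of 5.05 and 4.51. It fell by 1.95 ± 0.54 at P28 against P10 (adjusted p = 0.0125), with 24 reads at P28 and 125 at P10, while its difference for P10 against P4 was not called (1.40 ± 0.54, adjusted p = 0.0695). The P10 libraries of both peaks were above all others.

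Lrit1 and Lrit2 are neighbours on chromosome 14, and their peaks are 13052 bases apart. The assigned starts under these peaks, at 37054830 and 37067929, lie inside the RefSeq genes (37042475 to 37064938 and 37064433 to 37073743). Lrit1 had P2 values of 4.11 and 0.777 RPKM, P4 values of 2.07 and 5.25, P10 values of 10.3 and 15.8 and P28 values of 10.1 and 6.68. Lrit2 had P2 values of 2.25 and 3.40 RPKM, P4 values of 3.17 and 5.61, P10 values of 14.6 and 9.80 and P28 values of 4.98 and 7.02. In both genes the P10 libraries were above those of P2 and P4, and in Lrit1 a P28 library (10.1) came close to the lower P10 one. Lrit1 rose by 1.65 ± 0.57 at P10 against P4 (limma, adjusted p = 0.0468, 47 and 13 reads), and Lrit2 had a difference of 1.31 ± 0.52 (adjusted p = 0.0780, 48 and 18 reads). Neither was called for P28 against P10 (adjusted p = 0.479 and 0.205). Lrit1 at P28 against P2 differed by 1.62 ± 0.57 (adjusted p = 0.0605), and passed in 3 of 8 fits without 1 library. Further along the same chromosome, Cdhr1, the gene of an outer segment cadherin, had an intronic peak 26367 bases from that of Lrit2, with mean RPKM of 6.66, 5.95, 15.9 and 0 at P2, P4, P10 and P28. A peak over the start of Cdhr1, 30034 bases from that of Lrit2, averaged 3.31, 4.62, 7.91 and 6.46 RPKM at the same ages.

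**Figure D3:**
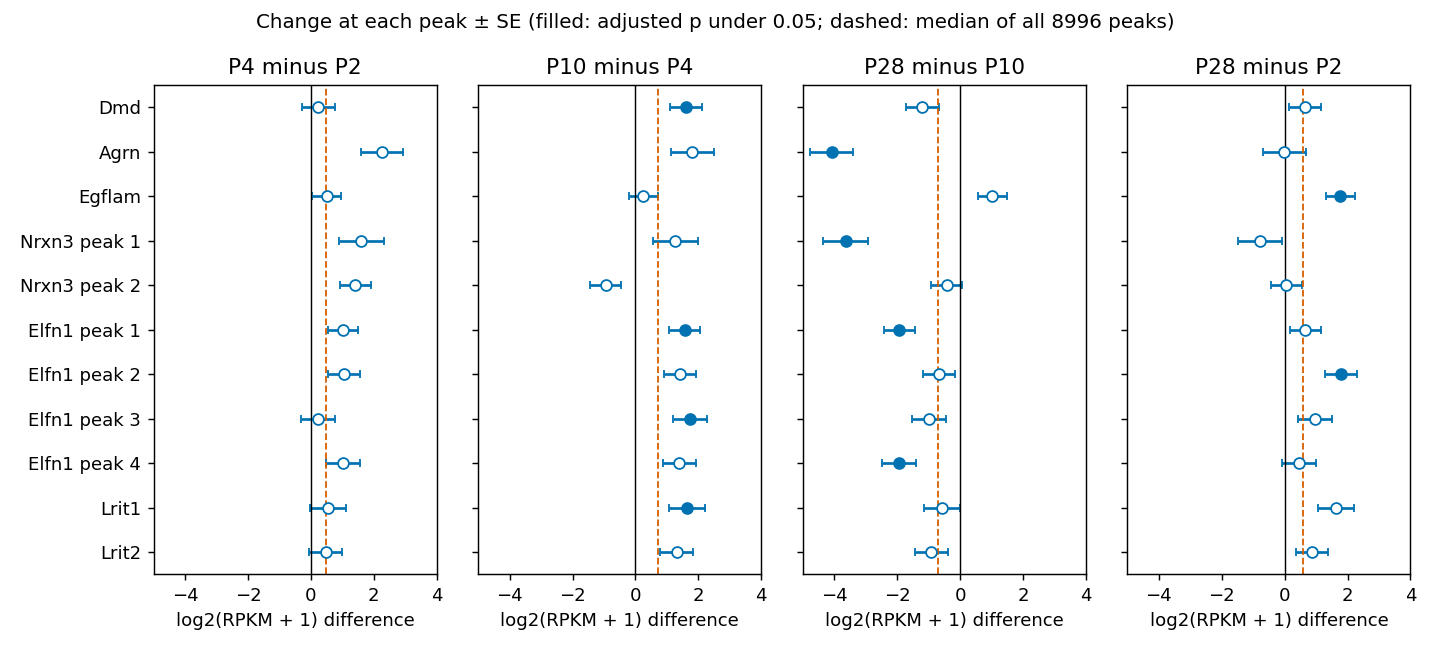
Points are log2(RPKM + 1) differences of the later minus the earlier age for each peak, with the limma SE as bars, in 4 panels for the 4 comparisons. Filled points passed an adjusted p under 0.05 and the dashed line is the median difference of all 8996 peaks. Filled points are 0 for P4 minus P2, 4 for P10 minus P4, 4 for P28 minus P10 and 2 for P28 minus P2.

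Counted over the 11 peaks, P4 against P2 gave no call by limma, as for the table as a whole (0% of all peaks called). Without P4 replicate 3 the count over all peaks was 829 higher, without P2 replicate 3 it was 192, without P28 replicates 3 and 4 it was 110 and 117, and without P2 replicate 4 it was 34. All 11 differences were positive, with a median of 1.02 against 0.48 for all peaks. With no adjustment, 5 of the 11 and 1295 of all peaks were higher at p under 0.05, and a limma-voom fit of the reads called 1 of the 11 (Agrn).

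For P10 against P4, Dmd, Elfn1 peaks 1 and 3 and Lrit1 rose, 4 of the 11 peaks against a background of 15.6% of all peaks called higher, and none fell (1.51% of all). These 4 peaks were in the P10 list alone, a selection that favours a higher signal at P10. The median difference of the 11 was 1.41, against 0.73 for all peaks. Both P10 libraries were above both P4 libraries in 9 of the 11, and this held for 58.9% of all peaks. With each library centred on its median none of these 4 rises was called (adjusted p from 0.215 to 0.288). None passed without P4 replicate 3 (0.115 to 0.351), without P10 replicate 1 (0.138 to 0.249) or without P10 replicate 4 (0.113 to 0.272). The larger share of P10 reads inside peaks moved with these rises, and its part in them was not tested beyond the centring.

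For P28 against P10, Agrn, Nrxn3 peak 1 and Elfn1 peaks 1 and 4 fell, 4 of the 11 against 20.7% of all peaks called lower, and none rose (1.29% of all). Agrn, Nrxn3 peak 1 and Elfn1 peak 1 were in the P10 list but not in the P28 list, a selection that favours such falls. The median of the 11 was -1.00, against -0.69 for all peaks. Both P28 libraries were below both P10 libraries in 9 of the 11 and in 61.7% of all. The falls of Agrn and Nrxn3 peak 1 passed in all 8 fits without 1 library and after centring (-3.48 ± 0.64, adjusted p = 0.00666, and -3.04 ± 0.68, adjusted p = 0.0152), but not with a pseudocount of 0.1 in place of 1 (0.0940 and 0.0735). Elfn1 peak 1 did not pass without P10 replicate 1 (0.0648), P10 replicate 4 (0.0590) or P28 replicate 4 (0.152), nor after centring (0.0508). Elfn1 peak 4 did not pass without P10 replicate 1 (0.0787), P10 replicate 4 (0.122), P28 replicate 3 (0.0594) or P28 replicate 4 (0.0823), and passed after centring (-1.35 ± 0.36, adjusted p = 0.0304).

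**Figure D4:**
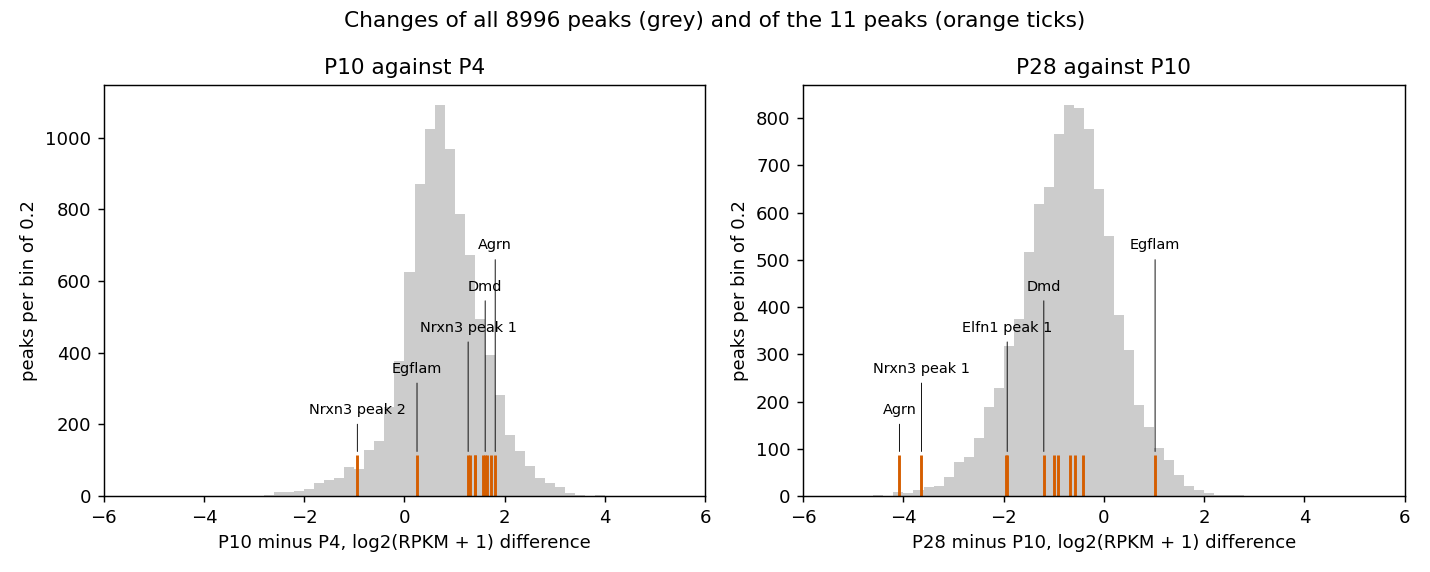
Grey bars count all 8996 peaks by their log2(RPKM + 1) difference, for P10 minus P4 on the left and P28 minus P10 on the right. Orange ticks are the 11 peaks, some of them named. On the right, Agrn at -4.08 and Nrxn3 peak 1 at -3.64 lie at the far left of the distribution, and Egflam at 1.02 lies in its right tail.

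For P28 against P2, Egflam and Elfn1 peak 2 rose, 2 of the 11 against 9.64% of all peaks called higher, and none fell (3.00% of all). Both peaks were in the P28 list and neither was in the P2 list, a selection that favours such rises. The median of the 11 was 0.66, against 0.57 for all peaks. Neither rise was called after centring (adjusted p = 0.125 and 0.0842). These comparisons share libraries, P10 in the steps before and after it and P2 and P28 in the others, so they are not independent of each other.

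Other genes of the photoreceptor synapse (adhesion, channels and bipolar receptor signalling), the dystroglycan complex and basement membranes were counted from a list of 71. Of these, 34 had a peak, each read at its strongest one by mean RPKM over all libraries. The shares of all peaks given beside them cover peaks of any strength, so like is not set against like. At P10 against P4, 8 of the 34 were higher (among them Lamc1, Nlgn2, Lrfn2, Cacnb2, Cadm1 and Sdk2) and 2 lower (Ncam1 and Cdh11), with a median of 1.03. Lamc1, Nlgn2, Lrfn2, Cacnb2 and Sdk2 were in the P10 list but not in the P4 list, a selection that favours such rises. Ncam1 and Cdh11 were in the P4 list alone, which favours their falls. Of all peaks 15.6% were higher and 1.51% lower, with a median of 0.73. After centring, 2 of the 34 were higher and 3 lower, against 259 and 293 of all 8996 peaks. The steepest of these rises was in Cacnb2, a subunit gene of voltage-gated calcium channels (2.32 ± 0.52, limma adjusted p = 0.00496), followed by Lrfn2, of a synaptic adhesion protein (2.21 ± 0.59, adjusted p = 0.0145), and Nlgn2, which encodes a neuroligin, a partner of neurexins (2.19 ± 0.57, adjusted p = 0.0116).

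At P28 against P10, 9 of the 34 were lower and 0 higher (median -1.01), where 20.7% of all peaks were lower and 1.29% higher (median -0.69), so that the count is near the background. After centring 8 of the 34 were lower, a larger share than the 770 of all 8996 peaks. That difference in share was not tested, and it sets strongest peaks against peaks of any strength. The 9 were Pomgnt2, Lama5, Elfn2, Nyx, Ptprf, Cadm1, Dscaml1, Sdk1 and Sdk2. All but Pomgnt2 and Cadm1 were in the P10 list and not in the P28 list, a selection that favours such falls. Elfn2, the relative of Elfn1, had the steepest of these falls, -2.84 ± 0.55 (limma, adjusted p = 0.00126), with 1.62 RPKM at P28 and 16.3 at P10. Pomgnt2, an enzyme that builds the sugar chain by which dystroglycan holds its ligands, had a change of -2.13 ± 0.56 (adjusted p = 0.00965). Dag1, the gene of dystroglycan itself, had 1 peak, over its start, of 1.33, 1.46, 2.89 and 1.68 RPKM at P2, P4, P10 and P28, and no comparison called it.

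At P28 against P2, 5 of the 34 were higher (among them Sntb2, Nlgn2, Lrit3 and Cadm1) and Lama5 was lower, with a median of 0.50, where 9.64% of all peaks were higher and 3.00% lower (median 0.57). After centring, 3 of the 34 were higher and 3 lower, against 294 and 653 of all 8996 peaks. Sntb2 encodes a syntrophin, a protein that binds dystrophin, and had a difference of 2.44 ± 0.51 (limma, adjusted p = 0.00318), with 6.57 RPKM at P28 and 0.473 at P2. The Sntb2 peak lay in an intron, 32365 bp downstream of the assigned start. Lrit3, a family member of Lrit1 and Lrit2 whose photoreceptor protein is needed for the channel TRPM1 to gather on bipolar dendrites, had 7.75 RPKM at P28 and 0.869 at P2 (2.35 ± 0.53, adjusted p = 0.00565), with its peak 8 bp from the start. The Sntb2 and Lrit3 peaks were in the P10 list alone. Their P2 means lay below 3 reads at the median width (1.17 and 1.77 RPKM in the P2 libraries) and rest on few reads.

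For the strongest peak of each gene, the 2 peaks of other genes with the most similar course were found by Pearson correlation of median-centred log2(RPKM + 1) values over the 8 libraries, among peaks with a mean at or above the median of the table. Agrn was most like peaks of Foxj2 (0.986) and Brf1 (0.964), and Nrxn3 peak 1 like peaks of Dpysl3 (0.992) and Ptp4a3 (0.980). Elfn1 peak 4 was most like peaks of Ssbp3 (0.989) and Ttc19 (0.977). Lrit1 was most like the start-site peaks of Ivd (0.980) and Vps28 (0.964), and Lrit2 like peaks of Eif3c (0.947) and Slc10a7 (0.933). Egflam was most like the start-site peaks of 5430416N02Rik (0.950) and Lrrc41 (0.916), and Dmd like peaks of Nsf (0.937) and Zfp385b (0.930). These correlations share the same 8 libraries and their depth, were picked as the highest of the table, and carry no test.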

How the data were processed

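The authors deposited a table of RPKM values for 8996 peaks in 8 libraries, and per age 1 list of reproducible peaks with a peak signal and a score of up to 1000 for each peak. Per the submitters' processing notes, the tools were bedtools 2.29.0, MACS2 2.2.5, Picard 2.20.8, SAMtools 1.9, Bowtie2 2.3.5.1 and Trimmomatic 0.38 and the builds GRCm38.p6 and ASM584v2, with no roles. Which replicates made each list is not given there, and 7 of the 15 labelled libraries were not analysed here.

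The deposited RPKM gave whole reads (within 0.001) once a growing offset of 39 rows per column was allowed between values and peak widths. Between 56.3 and 57.6% of peaks were thus scaled by a width off by over 1.5 times in the 7 columns after the first, and at the 11 peaks the deposited values were 0.173 to 2.61 times the rebuilt ones. For all results RPKM was computed again from those reads, using the true width of each peak. Reads in peaks per library ranged from 49430 to 227692. Intervals cover counting error only.

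Ages were compared with limma 3.58.1 (R 4.3.3; trend and robust) on log2(RPKM + 1), with all 8 libraries and the 4 ages in 1 fit, no filter and 4 residual degrees of freedom. Benjamini-Hochberg adjustment ran over all 8996 peaks, and a call is an adjusted p under 0.05. The fit was tested on simulated data. Presence in a list means an overlap of 1 base or more. All peaks of the 7 genes are described. Some genes of the wider list are counted but not reported by name here. The likeness rule used the strongest peak of each gene. Members, lists and tests were chosen with earlier results of these data known. Alternatives were the deposited values, a pseudocount of 0.1, a mean RPKM of at least 2, median centring, limma-voom, a replicate block and leaving out each library. Tables used Python 3.11.15 with pandas 2.3.3, SciPy 1.17.1 and NumPy 2.4.6, and figures Matplotlib 3.10.9.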

Additional observations from a re-analysis of the deposited data

How the results depend on the processing

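Of the 11 peaks, the number called for P4 against P2 (0) was 1 with limma-voom, 1 with the replicate block and 0 to 3 when 1 library was left out. For P10 against P4 (4) it was 1 with the values as deposited, 0 with a pseudocount of 0.1, 1 after median centring, 8 with limma-voom, 0 with the replicate block and 0 to 8 without 1 library. For P28 against P10 (4) it was 0 with a pseudocount of 0.1, 2 with the replicate block and 2 to 5 without 1 library. For P28 against P2 (2) it was 0 with the values as deposited, 0 with a pseudocount of 0.1, 0 after centring, 1 with limma-voom and 0 to 3 without 1 library. With a score of at least 800, 2 peaks were in the P4 list and 1 in the P28 list. Over all peaks, P10 against P4 gave 1405 higher and 136 lower calls, against 5 and 3 with a pseudocount of 0.1, 514 and 46 as deposited, 259 and 293 after centring, and 153 and 30 with the block. P28 against P10 gave 116 higher and 1858 lower, against 4 and 470 with a pseudocount of 0.1, 43 and 843 as deposited, 385 and 770 after centring, and 26 and 406 with the block. P28 against P2 gave 867 higher and 270 lower, against 224 and 112 with a pseudocount of 0.1 and 286 and 118 as deposited. It gave 294 and 653 after centring and 853 and 257 with the block. With limma-voom, all peaks gave 8 higher and 0 lower for P4 against P2 and 1933 and 140 for P10 against P4. They gave 85 and 1975 for P28 against P10 and 809 and 225 for P28 against P2. With the block, P4 against P2 gave 68 higher and 1 lower. The share of all peaks called also turned on single libraries. Higher calls for P10 against P4 numbered 2963 when P4 replicate 4 was left out and 179 when P4 replicate 3 was, and 192 and 340 when the P10 replicates 1 and 4 were. Lower calls for P28 against P10 numbered 485 and 635 with the P10 replicates 1 and 4 left out, 1094 and 1102 with the P28 replicates 3 and 4 left out, and at most 2574 (P4 replicate 3 left out). Higher calls for P28 against P2 ranged from 454 without P2 replicate 4 to 1292 without P4 replicate 3. The causes were not tested.

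Replicate numbers did not pair the libraries (deviations of the replicate 4 libraries correlated at -0.0128 to 0.0853), and the block leaves 2 residual degrees of freedom.

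Of 44 log2 changes (11 peaks, 4 comparisons), 11 turned in sign under some alternative, none of them called. After centring these were Dmd (-0.23) and Elfn1 peak 3 (-0.23) for P4 against P2, Egflam for P10 against P4 (-0.47), Nrxn3 peak 2 (0.18) and Lrit1 (0.03) for P28 against P10, and Nrxn3 peak 2 (-0.53) and Elfn1 peak 4 (-0.11) for P28 against P2. As deposited they were Egflam for P4 against P2 (-0.25), and Nrxn3 peak 2 (-0.33) and Elfn1 peak 4 (-0.14) for P28 against P2. Agrn for P28 against P2 was 1.13 with a pseudocount of 0.1 and 0.98 with limma-voom, and Nrxn3 peak 2 for P28 against P10 was 0.17 with the replicate block. Without 1 library, P4 against P2 ranged from -0.14 to 0.63 (Dmd), -0.51 to 0.99 (Elfn1 peak 3) and -0.22 to 1.30 (Lrit1), and P10 against P4 from -0.04 to 0.53 (Egflam). P28 against P2 ranged from -1.36 to 1.34 (Agrn), -2.18 to 0.62 (Nrxn3 peak 1) and -0.31 to 0.40 (Nrxn3 peak 2).

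Depth limits the low peaks most, since 3 reads correspond to 1.16 to 1.77 RPKM at the median width, and replicates correlated across peaks at 0.599 (P2) to 0.887 (P10).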
